A study of Mus musculus with 8 samples.

Results

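The genes described here make cholesterol, move it inside the cell and export it. They were followed in primary embryonic fibroblasts of the mouse, which are outgrowths of embryo tissue that have not been made into a permanent line. The 30 members were listed by name: 5 genes of SREBP control, 8 of the mevalonate pathway, 11 of the later sterol steps, 4 of uptake, transport and storage, and 2 of efflux. A probe set is a group of short array probes against 1 transcript. The array annotation paired 28 of the 30 members with a probe set of their own, and Acat2 and Soat1 were not analysed here. All 28 lay above the signal floor of 6.06 used to choose testable genes, so 28 of the 9511 genes tested are described. Where a member had several probe sets, the one with the highest mean over the 8 arrays was used.

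The 4 Cry DKO lines came from embryos of genotype Cry1-/- and Cry2-/-, which lack both cryptochromes, the repressors of the circadian clock, and the 4 WT lines came from wild-type embryos. Each array held RNA of 1 independent line. Both groups were bred to a near-C57BL/6J strain background (over 7 backcrosses; the founders were BL6/129 mice), and both proliferated asynchronously at 3% oxygen with 10% serum and no treatment. The sources used here give no embryo age. A WT line's value averages over cells in different clock phases. Clock phase was not measured in either group.

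Cells sense sterols through the SREBP transcription factors. When sterols are scarce, SCAP carries SREBP from the endoplasmic reticulum to the Golgi, where proteases release the active factor, which then turns on the genes of cholesterol synthesis and uptake. When sterols are plentiful, INSIG proteins hold SCAP back, and oxysterols activate the LXR receptors, which induce the efflux transporters ABCA1 and ABCG1. Fibroblasts in serum both take up lipoprotein cholesterol and make their own.

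All values are deposited signals on a log2 scale whose base was inferred from their range, and each difference is Cry DKO minus WT on that scale, with n = 4 lines per genotype, SD for groups and SE for differences. The number of arrays limits the precision, and the typical tested gene varied among lines of 1 genotype with an SD of 0.13 (median). Adjusted p-values came from limma with Benjamini-Hochberg adjustment over the 9511 genes, and a gene was called at 0.05. The targeted genes were not called: Cry1 had 6.32, 5.84, 6.50 and 6.50 in Cry DKO lines and 7.27, 6.51, 6.95 and 6.42 in WT lines, a difference of -0.50 (SE 0.21, limma adjusted p = 0.168). Cry2 had 6.86, 7.12, 6.85 and 6.64 in Cry DKO lines and 7.15, 7.34, 6.97 and 7.34 in WT lines, a difference of -0.34 (SE 0.13, limma adjusted p = 0.132). The sources used here do not say where these probes lie relative to the deleted parts, so they check nothing about the labels. Of 10 fibroblast markers, Vim, Col1a2 and Fn1 had the highest means in both groups, while the probe sets of Pdgfra, Dcn and Lum lay below the floor.

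Of the 28 members, 6 rose in Cry DKO lines (Hmgcs1, Idi1, Sqle, Cyp51, Stard4 and Abcg1) and 1 fell (Insig2). The called share was 25% of members, against 9.18% of all tested genes. The higher calls made up 21.4% of members, against 4.95% of all tested genes, and the single lower call 3.57%, against 4.23%. The difference was positive for 22 of 28 members (78.6%) and for 48.5% of all tested genes, and the members' median was 0.11, against -0.01 for all tested genes. The 2 groups of lines did not overlap for 9 members (32.1%), against 16.8% of all tested genes. The members were chosen with earlier results of these data known. These shares, and those by step below, therefore describe the list and are not a test of it. The changes were small: among the called members other than Abcg1 the differences spanned -0.33 to 0.39, or 0.794-fold to 1.31-fold. The counts depended on single lines: 2 members were called without WT line 1 or without WT line 4, 3 without Cry DKO line 2, Cry DKO line 3 or WT line 3, 4 without Cry DKO line 4 or WT line 2, and 7 without Cry DKO line 1.

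**Figure D1:**
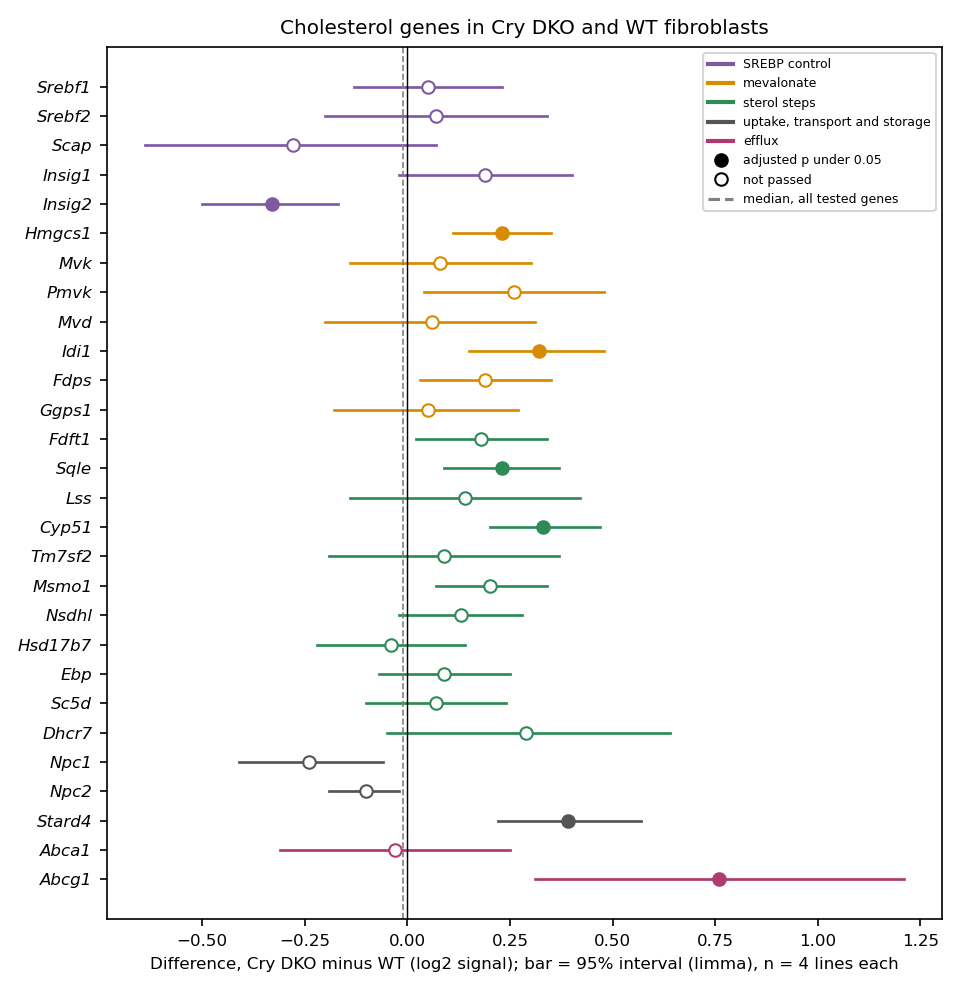
Difference between Cry DKO and WT lines (Cry DKO minus WT, log2 signal) for the 28 members, coloured by step, with 95% intervals from limma and n = 4 lines each. Filled points passed an adjusted p of 0.05; the 6 higher ones run from 0.23 to 0.76 and the lower one, Insig2, lies at -0.33, while the dashed line marks the median of all tested genes at -0.01.

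Other measured features of the lines moved with genotype, and their part in the members' differences was not tested. All 16 tested cell cycle genes rose (100%, against 4.95% of all tested genes), with a median of 0.53. Their means were 9.81, 9.84, 9.77 and 9.78 in Cry DKO lines 1 to 4, against 9.40, 9.23, 9.22 and 9.29 in WT lines 1 to 4. Of 19 tested macrophage and blood cell markers 10 rose (52.6%, against 4.95% of all tested genes) and none fell, with a median of 0.75. The log2 signals of all 20 such markers summed to between 168.4 and 188.2 in Cry DKO lines and to between 156.8 and 168.6 in WT lines. None of these markers was near 0, and the lowest, Cd33, averaged 5.10 over the 8 lines. The brightest was Lyz2, a lysozyme, at 12.16 ± 0.26 in Cry DKO and 11.34 ± 0.22 in WT lines (SD, n = 4 each). Csf1r, a growth factor receptor of macrophages, had 11.00 ± 0.39 in Cry DKO and 10.16 ± 0.29 in WT lines, and the complement gene C1qa had 10.50 ± 0.49 in Cry DKO and 9.76 ± 0.33 in WT lines. C1qa was not called (limma adjusted p = 0.0581), and its groups overlapped. All 7 tested fibroblast markers had negative differences (median -0.07) and none passed. The means of the 10 fibroblast markers were 10.71, 10.64, 10.59 and 10.70 in Cry DKO lines 1 to 4, all below those of WT lines 1 to 4, which were 10.72, 10.99, 10.90 and 10.85. This gap rests in part on Pdgfra, Dcn and Lum, which lay below the floor and were not tested (differences -0.25, -0.51 and -0.40). Of the 7 tested fibroblast markers the groups did not overlap for 1, Col1a1. In bulk RNA a change in the share of a cell type and a change in RNA per cell cannot be told apart. When the mean of the macrophage and blood cell markers entered the model, an alternative chosen after seeing the data, 54 genes and 1 member (Cyp51, 0.45) were called. The differences of 5 of the 6 members that lost their call were about as large or larger in that fit: 0.34 for Hmgcs1, 0.44 for Idi1, 0.33 for Sqle, 0.38 for Stard4 and -0.33 for Insig2, with adjusted p by limma from 0.0819 to 0.189. That of Abcg1 was smaller, at 0.35 (adjusted p = 0.537 by limma). The marker mean itself moved with genotype, from 8.42 to 9.41 in Cry DKO and from 7.84 to 8.43 in WT lines. A fit with both terms separates them poorly, so its differences are less precise.

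Of the 5 genes of SREBP control none rose and 1 fell, with a median difference of 0.05. The share called, 20% against 9.18% of all tested genes, rests on that 1 gene. Srebf2, which encodes the SREBP most tied to cholesterol synthesis, had 9.17, 9.12, 8.81 and 9.02 in Cry DKO lines and 8.78, 9.33, 8.96 and 8.78 in WT lines. Srebf1, whose products favour fatty acid synthesis, had 9.22, 9.48, 9.34 and 9.29 in Cry DKO lines and 9.15, 9.36, 9.18 and 9.44 in WT lines. The groups overlapped for both genes, with differences of 0.07 (95% interval -0.20 to 0.34) for Srebf2 and 0.05 (-0.13 to 0.23) for Srebf1. Scap, the escort of SREBP, had a difference of -0.28 (95% interval -0.64 to 0.07), and this value rested on Cry DKO line 4, which stood at 8.52 while the other Cry DKO lines were between 9.16 and 9.42 and the WT lines between 9.27 and 9.49. Without that line the Scap difference was -0.09.

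Insig2, whose product holds SCAP in the endoplasmic reticulum, had 8.86, 8.73, 8.79 and 9.04 in Cry DKO lines and 9.19, 9.19, 9.15 and 9.23 in WT lines. Every Cry DKO line lay below every WT line, and the WT lines were close together (SD 0.03, against 0.14 in Cry DKO lines). Insig2 fell by 0.33 (SE 0.07, limma adjusted p = 0.0214). Its other probe sets gave -0.31 and -0.28, with overlapping groups. Neither passed when each probe set was tested (limma adjusted p = 0.182 and 0.0865). Insig1, which is itself a target of SREBP, had 8.31, 8.46, 8.58 and 8.42 in Cry DKO lines and 8.08, 8.32, 8.17 and 8.45 in WT lines, a difference of 0.19 that did not pass (95% interval -0.02 to 0.40). The gap Insig1 minus Insig2, a pair chosen after the values were seen and not tested, ranged from -0.63 to -0.21 in Cry DKO lines and from -1.11 to -0.79 in WT lines. In fits with 1 line left out, the Insig2 call held without Cry DKO line 1 (adjusted p = 0.0406 by limma) or line 4 (0.00633), and ended without each of the other 6 lines, with adjusted p between 0.0511 and 0.0565.

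The mevalonate pathway turns acetyl units into the isoprenoid building blocks of sterols. All 7 tested members had positive differences (against 48.5% of all tested genes), with a median of 0.19. Of them 2 passed (28.6%, against 9.18% of all tested genes). Hmgcs1, the synthase that commits acetyl units to the pathway, had 11.57, 11.59, 11.67 and 11.62 in Cry DKO lines and 11.31, 11.52, 11.35 and 11.37 in WT lines. The groups did not overlap, WT line 2 being the nearest to the Cry DKO lines, and Hmgcs1 rose by 0.23 (SE 0.05, limma adjusted p = 0.0288). The probe set used is of the type whose probes may also match other transcripts. A further Hmgcs1 probe set, not of that type, rose by 0.24 when each probe set was tested (limma adjusted p = 0.0304), and another by 0.29 (0.0491), while 1 had a difference of 0.11 that did not pass and the dimmest, at 0.13, was not tested.

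Idi1, the isomerase that interconverts the isoprene units, had 9.67, 9.70, 9.77 and 9.82 in Cry DKO lines and 9.40, 9.61, 9.30 and 9.38 in WT lines. WT line 2 was again the highest WT line without reaching the Cry DKO range. Idi1 rose by 0.32 (SE 0.07, limma adjusted p = 0.0259), and its dimmer probe set rose by 0.51 (0.0218 when each probe set was tested). The calls of both genes ended without WT line 1, 3 or 4 or Cry DKO line 3, that of Hmgcs1 also without Cry DKO line 2 and that of Idi1 also without Cry DKO line 4, with adjusted p by limma of up to 0.0792 for Hmgcs1 and up to 0.0746 for Idi1. The other enzymes had differences that did not pass: 0.26 for the kinase gene Pmvk (95% interval 0.04 to 0.48), 0.19 for Fdps, which makes farnesyl diphosphate (0.03 to 0.35), 0.08 for the kinase gene Mvk (-0.14 to 0.30), and 0.06 for the decarboxylase gene Mvd (-0.20 to 0.31). Ggps1, at a branch that leads to protein prenylation and not to sterols, had a difference of 0.05 (-0.18 to 0.27), and its 4 probe sets ranged from -0.11 to 0.08. Over the 7 genes the means were 9.03, 9.05, 9.04 and 9.06 in Cry DKO lines 1 to 4, against 8.88, 8.97, 8.78 and 8.89 in WT lines 1 to 4. The Cry DKO lines were alike (SD 0.01), and the WT lines were more spread (SD 0.08).

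The start-site regions of Hmgcs1 and Idi1 are shown because these are the called mevalonate genes. Each sequence runs 5′ to 3′ from 250 bases before to 50 after the start site (RefSeq, GRCm38.p6; chr13:119690101-119690400, plus strand, and chr13:8885356-8885655, plus strand). Capitals mark matches on either strand to the core of the sterol regulatory element (CACNCCAC), the NF-Y box (CCAAT), the Sp1 box (GGGCGG) or the E-box bound by the clock factors (CACGTG).
Hmgcs1 promoter: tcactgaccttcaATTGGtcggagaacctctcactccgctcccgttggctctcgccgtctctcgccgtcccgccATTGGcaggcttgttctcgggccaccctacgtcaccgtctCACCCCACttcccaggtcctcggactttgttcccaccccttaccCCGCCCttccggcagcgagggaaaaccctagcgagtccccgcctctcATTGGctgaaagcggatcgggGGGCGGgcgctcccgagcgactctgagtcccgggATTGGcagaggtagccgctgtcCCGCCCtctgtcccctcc
Idi1 promoter: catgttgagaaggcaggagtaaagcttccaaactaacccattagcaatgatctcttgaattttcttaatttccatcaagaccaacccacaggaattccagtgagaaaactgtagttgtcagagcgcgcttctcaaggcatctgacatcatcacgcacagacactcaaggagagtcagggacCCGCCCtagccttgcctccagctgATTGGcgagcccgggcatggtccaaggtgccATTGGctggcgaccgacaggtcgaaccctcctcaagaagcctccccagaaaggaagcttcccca
Hmgcs1 held the sterol regulatory element core at position -136 (the start base is 0), with 4 NF-Y boxes and 3 Sp1 boxes around it. Idi1 held 2 NF-Y boxes and 1 Sp1 box.

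The sterol steps convert farnesyl diphosphate to squalene and then to cholesterol. Of 11 tested members 10 had positive differences (90.9%, against 48.5% of all tested genes), with a median of 0.14. Of them 2 passed (18.2%, against 9.18% of all tested genes). Cyp51, the demethylase of lanosterol, had 9.80, 9.86, 9.92 and 9.93 in Cry DKO lines and 9.51, 9.62, 9.58 and 9.44 in WT lines. Every Cry DKO line was above every WT line, by at least as much as the Cry DKO lines differed among themselves, and Cyp51 rose by 0.33 (SE 0.06, limma adjusted p = 0.00915). It had the smallest p of all members, and its call held in each of the 8 fits without 1 line (adjusted p from 0.0125 to 0.0292). A dimmer Cyp51 probe set rose by 0.37 (limma adjusted p = 0.0434 when each probe set was tested). Sqle, the epoxidase that is a control point of the pathway, had 9.94, 10.15, 10.10 and 10.02 in Cry DKO lines and 9.77, 9.90, 9.83 and 9.80 in WT lines. The groups were separated by a narrow margin, between Cry DKO line 1 and WT line 2. Sqle rose by 0.23 (SE 0.06, limma adjusted p = 0.0448), a call that held without Cry DKO line 1 (0.0351) and ended without each of the other 7 lines (0.0576 to 0.116). With all 8 lines the Sqle call also ended without the signal floor (adjusted p = 0.0527 by limma). The same held with each probe set tested (0.0546) and without an intensity trend (0.0735).

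The start-site region of Cyp51 (RefSeq, GRCm38.p6, chr5:4104648-4104947, minus strand), the member with the smallest p, follows with the same marking.
Cyp51 promoter: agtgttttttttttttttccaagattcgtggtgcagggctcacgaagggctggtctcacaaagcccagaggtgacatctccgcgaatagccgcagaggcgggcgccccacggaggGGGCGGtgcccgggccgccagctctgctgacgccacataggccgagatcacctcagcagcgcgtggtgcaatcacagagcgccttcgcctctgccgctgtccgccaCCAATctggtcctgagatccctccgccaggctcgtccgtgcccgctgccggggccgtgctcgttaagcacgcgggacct
It held 1 NF-Y box and 1 Sp1 box and no match to the sterol regulatory element core or the E-box as spelled here.

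Msmo1, which removes methyl groups from sterols, had 10.51, 10.56, 10.69 and 10.71 in Cry DKO lines and 10.40, 10.46, 10.46 and 10.33 in WT lines. Its groups did not overlap, but the difference of 0.20 did not pass (SE 0.06, limma adjusted p = 0.0604). Fdft1, squalene synthase, had a difference of 0.18 (95% interval 0.02 to 0.34), with WT line 2 at 9.85 inside the Cry DKO range of 9.82 to 9.91 and the other WT lines below it; its other probe set gave 0.02. Dhcr7, a reductase of the last steps, had a difference of 0.29 with a wide interval (-0.05 to 0.64): Cry DKO lines 1 to 4 stood at 7.70, 7.34, 7.27 and 6.93, against 7.01, 6.83, 6.95 and 7.27 in WT lines 1 to 4.

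The remaining sterol genes did not pass. The cyclase gene Lss had a difference of 0.14 (95% interval -0.14 to 0.42) and the X-linked genes Nsdhl, a dehydrogenase of the demethylation steps, and Ebp, a sterol isomerase, had 0.13 (-0.02 to 0.28) and 0.09 (-0.07 to 0.25). Tm7sf2, a sterol reductase, had 0.09 (-0.19 to 0.37), Sc5d, a desaturase, 0.07 (-0.10 to 0.24) and Hsd17b7, a reductase of the demethylation steps, -0.04 (-0.22 to 0.14). By Xist and Eif2s3y, 2 Cry DKO lines (1 and 4) and 1 WT line (1) were female. With sex in the model, also chosen after seeing the data, Nsdhl and Ebp had differences of 0.15 and 0.09. In that fit Idi1 (0.32, limma adjusted p = 0.0501) and Abcg1 (0.71, 0.0848) were no longer called. Over the 11 sterol genes the means were 8.92, 8.97, 8.93 and 8.89 in Cry DKO lines 1 to 4, against 8.74, 8.85, 8.73 and 8.78 in WT lines 1 to 4. WT line 2 was the highest WT line in this step and in the mevalonate step, and it was the lowest of all lines in the macrophage and blood cell markers (mean 7.84). WT line 3, with the next lowest marker mean (8.09), was the lowest WT line in both steps. A link between the markers and these steps was not tested.

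**Figure D2:**
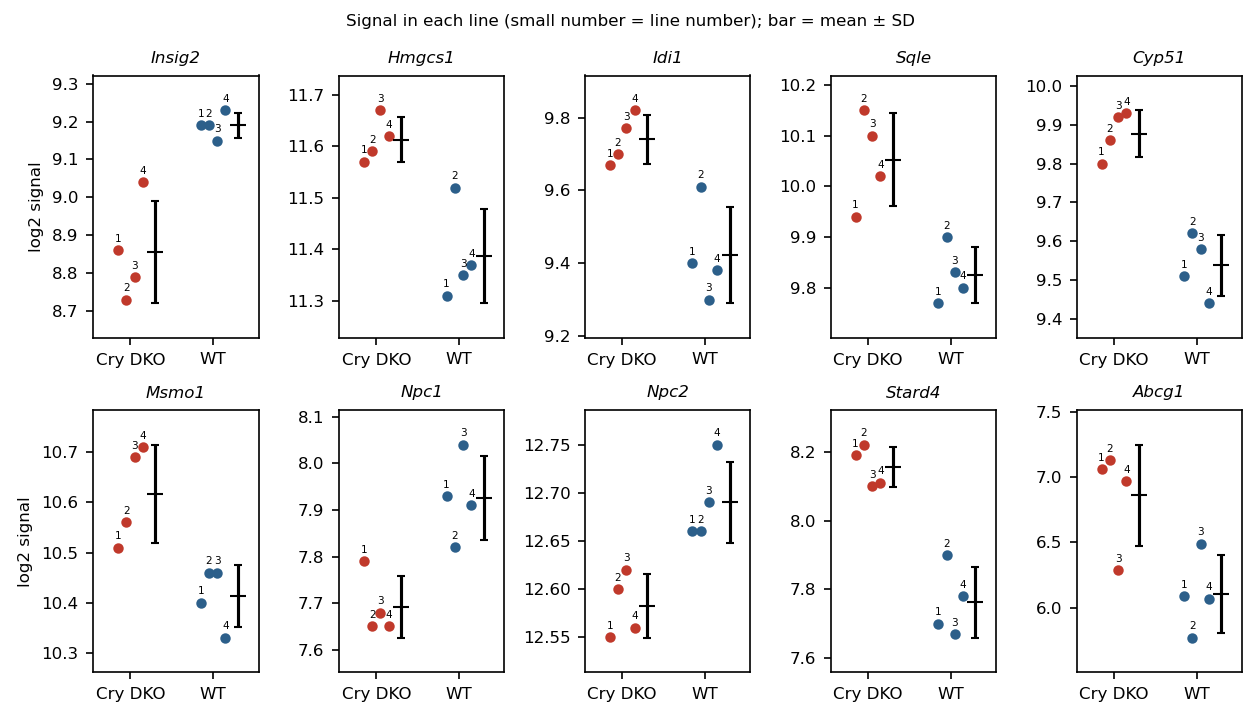
Log2 signal in each Cry DKO (left) and WT (right) line for the 10 members that were called or whose groups did not overlap, with the mean and SD beside the points (n = 4 each) and line numbers above them. The groups are apart in every panel except Abcg1, where Cry DKO line 3 (6.29) lies below WT line 3 (6.49).

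Of the 3 tested genes that handle cholesterol after uptake 1 rose and none fell, with a median difference of -0.10. The share called, 33.3% against 9.18% of all tested genes, rests on that 1 gene. NPC1 and NPC2 pass cholesterol from lipoproteins out of the lysosome, and STARD4 is a soluble carrier that moves sterol between membranes and is induced by SREBP. Stard4 had 8.19, 8.22, 8.10 and 8.11 in Cry DKO lines and 7.70, 7.90, 7.67 and 7.78 in WT lines. All Cry DKO lines were above all WT lines. Stard4 rose by 0.39 (SE 0.08, limma adjusted p = 0.0144). Its other probe sets gave 0.52 and 0.41, and neither passed when each probe set was tested (limma adjusted p = 0.052 and 0.0679). The Stard4 call held in each of the 8 fits without 1 line (adjusted p from 0.0148 to 0.0468). Npc1 had 7.79, 7.65, 7.68 and 7.65 in Cry DKO lines and 7.93, 7.82, 8.04 and 7.91 in WT lines. Npc2 had 12.55, 12.60, 12.62 and 12.56 in Cry DKO lines and 12.66, 12.66, 12.69 and 12.75 in WT lines. For both genes every Cry DKO line was lower than every WT line, by a narrow margin, and neither passed, with differences of -0.24 for Npc1 (SE 0.08, limma adjusted p = 0.0921) and -0.10 for Npc2 (SE 0.04, 0.138).

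Of the 2 efflux transporters 1 rose, and the median difference was 0.36. The share called, 50% against 9.18% of all tested genes, rests on that 1 gene. Abcg1, which loads cholesterol onto lipoprotein particles, had 7.06, 7.13, 6.29 and 6.97 in Cry DKO lines and 6.09, 5.77, 6.49 and 6.07 in WT lines. The groups overlapped, since Cry DKO line 3 lay below WT line 3, and WT line 2 was below the floor, where signals are less precise. Abcg1 rose by 0.76 (SE 0.21, limma adjusted p = 0.0428). Cry DKO line 3 was also the Cry DKO line with the lowest mean of macrophage and blood cell markers (8.42, against 8.68 to 9.41 in the others), and WT line 2 the lowest of all in both. Other WT lines did not keep this order. WT line 3 had the highest WT Abcg1 (6.49) with a marker mean of 8.09, and WT line 1 had 6.09 with the highest WT marker mean, 8.43. A link between the markers and Abcg1 was not tested. With the marker mean as a covariate the Abcg1 difference was 0.35 (adjusted p = 0.537 by limma). The call held without Cry DKO line 3 (0.95, adjusted p = 0.0127) or WT line 3 (0.88, 0.0449) and ended without each of the other 6 lines (0.64 to 0.75, adjusted p from 0.0859 to 0.109). With all 8 lines the Abcg1 call also ended with array weights (adjusted p = 0.0606 by limma). The same held without an intensity trend (0.0542) and with a replicate block (0.0731).

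Abca1, which exports cholesterol to lipid-poor apolipoproteins, had 9.14, 9.07, 8.94 and 9.21 in Cry DKO lines and 9.05, 8.78, 9.16 and 9.49 in WT lines. The Cry DKO values lay within the WT range, and the difference was -0.03 (95% interval -0.31 to 0.25). Its other tested probe set gave 0.16, and the mean of all its probe sets 0.17. The gap Abcg1 minus Abca1, also chosen after the values were seen and not tested, ranged from -2.66 to -1.94 in Cry DKO lines and from -3.42 to -2.68 in WT lines.

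**Figure D3:**
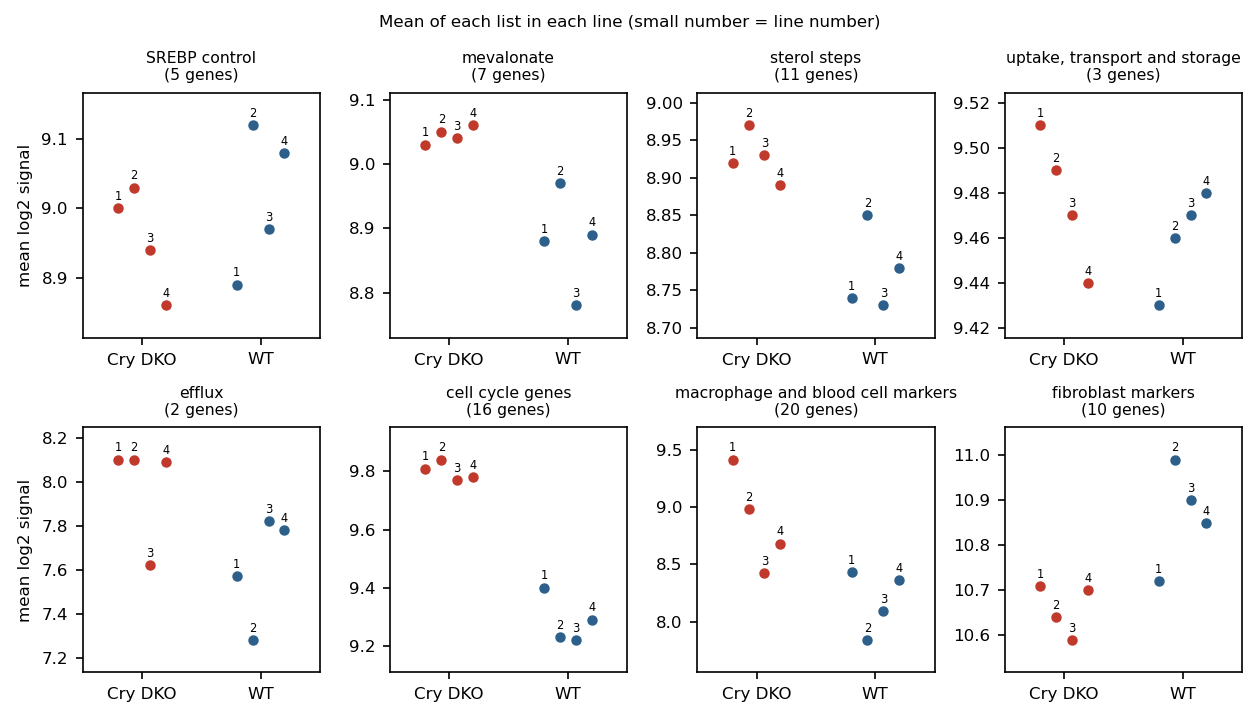
Mean log2 signal of each step in each Cry DKO (left) and WT (right) line, with the cell cycle, macrophage and blood cell, and fibroblast lists for comparison and line numbers above the points. The mevalonate and sterol means of all 4 Cry DKO lines lie above those of all WT lines, as do those of the cell cycle genes, while the macrophage list overlaps between Cry DKO line 3 (8.42) and WT line 1 (8.43).

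The probe sets of a member mostly pointed the same way. Of the 7 called members, Insig2, Hmgcs1, Idi1, Cyp51 and Stard4 had several, all with the sign of the one used, and Sqle and Abcg1 had 1 each. Among the genes that were not called, the probe sets of Scap, Ggps1, Hsd17b7 and Abca1 differed in sign. When the probe sets of a gene were averaged, the difference was 0.20 for Hmgcs1 (limma adjusted p = 0.102) and 0.30 for Cyp51 (0.0511), and neither passed.

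**Figure D4:**
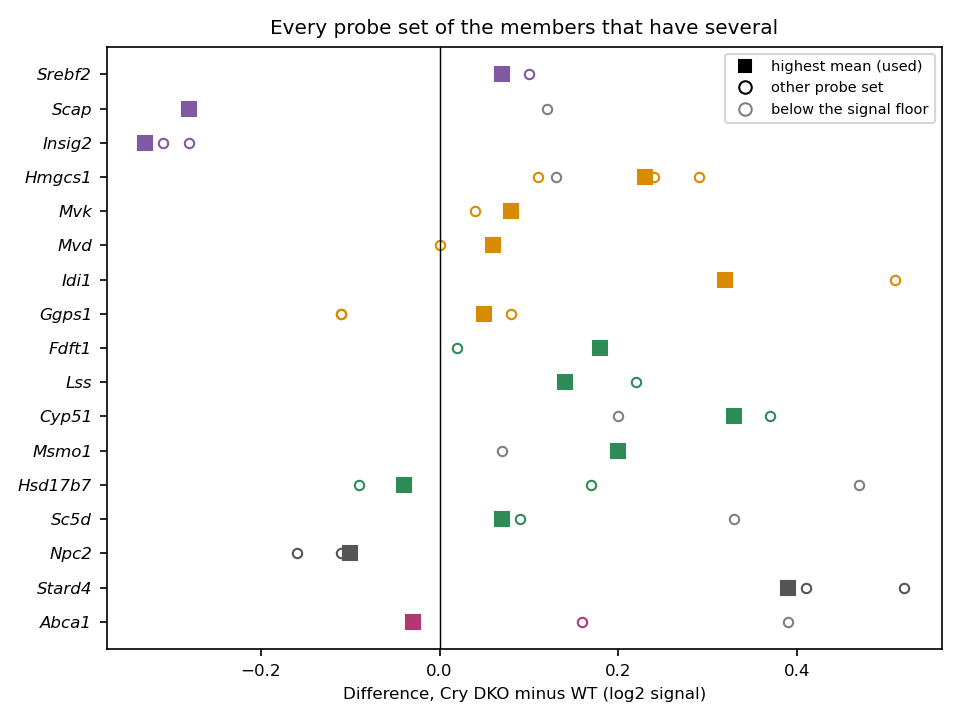
Difference (Cry DKO minus WT, log2 signal) of every probe set of the 17 members with several. Squares mark the probe set of highest mean and grey circles those below the signal floor; all 3 probe sets of Insig2 lie between -0.33 and -0.28 and all 3 of Stard4 between 0.39 and 0.52.

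Promoters of 22 of the 28 members, 30 regions in all, were in the RefSeq table (GRCm38.p6). The NF-Y box occurred in 21 of the 30 (70%), against 37.4% of all 32817 promoters of the same length, and the Sp1 box in 24 (80%), against 35.6%. The sterol regulatory element core occurred in 2 (6.67%), those of Insig1 and Hmgcs1, against 6.24%, and the E-box in 7 (23.3%), against 7.15%. The E-box matches belonged to Scap, Insig1, Hsd17b7, Sc5d, Dhcr7 and Abca1, none of which was called. The 4 called members with a promoter in the table, Insig2, Hmgcs1, Idi1 and Cyp51, each had an NF-Y and an Sp1 box, those of Insig2 lying in different promoters of its 3. Counted by gene, 20 of the 22 members held an NF-Y box and 20 an Sp1 box, so these boxes were not particular to the called members. Letters were searched on both strands, none of the 4 motifs contains another, and a match describes the sequence and not a bound site. Sites with other spellings were not counted, so a promoter without a match may still hold a site.

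**Figure D5:**
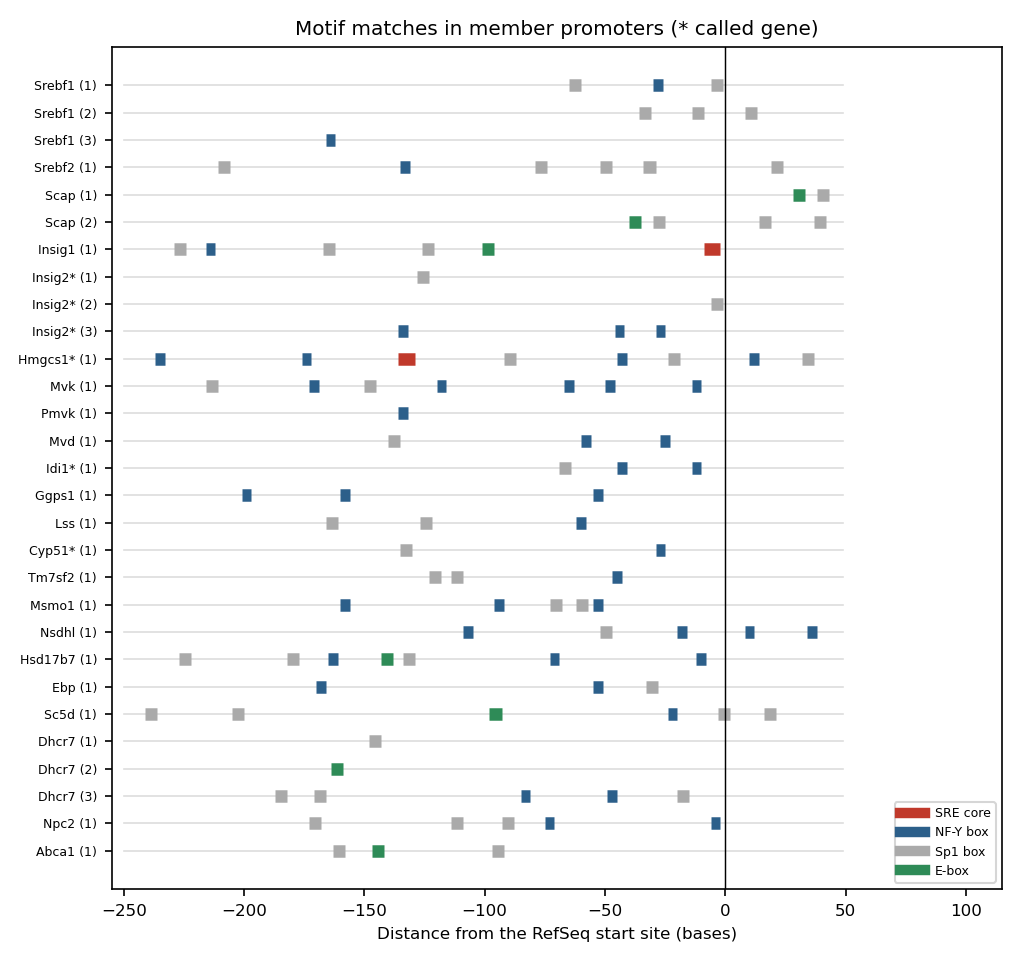
Motif matches in those member promoters that held at least 1, by distance in bases from the RefSeq start site, with called genes starred and the number of the promoter in brackets. The sterol regulatory element core appears in Insig1 and Hmgcs1 alone, and NF-Y and Sp1 boxes are spread over most rows.

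Among other genes of the sterol pathway, 44 were listed, 36 had a probe set and 31 were tested: 3 rose and 2 fell (16.1%, against 9.18% of all tested genes), with a median of 0.07. Lbr, the lamin B receptor, which is also a sterol reductase, had 10.22, 9.99, 10.08 and 10.09 in Cry DKO lines and 9.76, 9.63, 9.69 and 9.75 in WT lines. It rose by 0.39 (SE 0.06, limma adjusted p = 0.0048), while Tm7sf2, which catalyses the same reduction, had the 0.09 given above. Ch25h, which turns cholesterol into an oxysterol and is inducible in macrophages, had 9.48, 9.23, 9.16 and 9.28 in Cry DKO lines and 9.00, 8.59, 8.75 and 8.78 in WT lines. It rose by 0.51 (SE 0.10, limma adjusted p = 0.00999). Nceh1, an esterase that frees stored cholesterol, rose by 0.64 (SE 0.14, 0.0228). The sterol transfer genes Osbpl5 and Gramd1a fell by 0.42 (SE 0.10, limma adjusted p = 0.0236) and 0.25 (SE 0.06, 0.0284). The groups did not overlap for any of these 5 genes. Of the rest, the smallest p-values belonged to Mbtps2, a protease that releases SREBP (0.19, limma adjusted p = 0.105), Acat1, a mitochondrial thiolase (0.18, 0.12), and Erg28, a scaffold of the demethylation complex (0.21, 0.135). Of adipocyte markers 3 were tested and none passed, with Fabp4 at 0.25, Lpl at 0.13 and Cebpa at 0.44, and Adipoq averaged 2.27. Of epithelial markers Krt18 alone was tested (-0.30, not passed). Below the floor and not tested, Krt8 had a difference of 1.29 and Cdh1 one of -0.26. No endothelial marker lay above the floor.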

How the data were processed

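Per the labels, 5 ug of total RNA from each of 8 fibroblast lines was labelled for Affymetrix 3' expression arrays. The authors deposited log2 values; their base was inferred from the range (0.0675 to 14.3). The submitters' processing notes name GCOS, with no version. The sources used here do not give the summarisation, the normalisation or how the listed probe sets were chosen. Array medians were 6.78 to 6.79, so no further scaling was applied, and changes in total RNA per cell are not measured. No column duplicated another.

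Of 30506 probe sets, 61 were controls, 24838 had 1 gene, 658 several and 4949 none; 24757 of the 24838 matched GRCm38.p6 gene identifiers, which updated symbols. A gene's probe set of highest mean stood for it, and 9511 genes at or above the 40th percentile (6.06) were tested with limma 3.58.1 in R 4.3.3 (intensity trend, no covariate, Benjamini-Hochberg, threshold 0.05). No detection calls were used. Fold changes are powers of 2 of log2 differences. The code was tested on simulated data. All 28 members are named by step, with values per line for called or non-overlapping members and for Srebf1, Srebf2, Insig1, Abca1, Abcg1 and Npc1; from the other sterol genes, all called ones and the 3 of smallest p; from marker lists, the 3 of highest mean. Cd33, Adipoq, Pdgfra, Dcn, Lum, Col1a1, Krt18, Krt8, Cdh1, Scap and Dhcr7 were detailed after their values were seen. The members and lists were chosen with earlier results of these data known. The alternatives changed the normalisation, the signal filter, the choice of probe sets, the empirical Bayes settings, array weights or the threshold, added the replicate number as a block or 1 of 2 covariates, or left out a line.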

Additional observations from a re-analysis of the deposited data

Results flagged for a closer look

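Within each genotype, the 28 members and the 5 step means were examined for a line far from the other 3 by Dixon's gap ratio, in 66 groups of 4 lines. Chance marks about 1 in 20 such groups, and 2 were marked. The mean of the efflux genes Abca1 and Abcg1 was 7.62 in Cry DKO line 3, with the nearest Cry DKO line at 8.09. Nsdhl was 9.12 in WT line 2, with the nearest WT line at 8.94.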

How the results depend on the processing

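No called member changed sign under any alternative run. Of the members' values under the alternatives, 543 kept their sign and side of the threshold, 52 lost a call, 3 gained one and 13 changed sign, the last all in genes called in neither fit. These were Srebf1 (0.00 to 0.10 without 1 line), Mvd (-0.01 to 0.12 without 1 line), Ggps1 (-0.04 to 0.09 without 1 line, -0.02 with probe sets averaged, -0.06 with the macrophage covariate), Hsd17b7 (-0.09 to 0.00 without 1 line, 0.13 with probe sets averaged, 0.07 with the macrophage covariate), Abca1 (-0.14 to 0.09 without 1 line, 0.17 with probe sets averaged), and Lss (-0.13) and Dhcr7 (-0.09) with the macrophage covariate. Counts of called members (7 in the main analysis, 6 higher and 1 lower) were 4 without an intensity trend (3 higher), 9 at an adjusted p of 0.1 (2 lower) and 1 at 0.01 (1 higher, 0 lower). Without 1 line they ranged from 2 to 7 (2 to 6 higher, 0 to 1 lower), which also leaves fewer samples. Called genes (873) numbered 1437 at 0.1, 210 at 0.01 and 382 (without WT line 3) to 686 (without Cry DKO line 1) with 1 line left out. Of the fits chosen after seeing the data, the macrophage marker mean as a covariate left 54 genes and 1 member (1 higher, 0 lower). In that fit 5 of the 6 lost members had differences about as large or larger. The marker mean itself moved with genotype, so that fit separates the 2 poorly. Sex as a term left 520 genes and 5 members. For these falls in the counts the cause was not tested. The replicate numbers were not taken as pairs in the main analysis. The r of same-numbered lines ran from -0.01 to 0.36 and that of other lines from -0.27 to 0.12. Of the 4 Cry DKO lines 3 were closest to their own number. Whether same-numbered lines belong together was not tested. With a replicate block 6 members and 1051 genes were called, against 7 and 873 without it, and Abcg1 was not called (adjusted p = 0.0731 by limma). Step medians moved beyond the spread between lines in these cases: with each probe set tested, SREBP control was -0.12 and mevalonate 0.10, since genes with several probe sets then count several times; with the macrophage covariate, sterol steps were 0.24 and efflux 0.06; at the 60th percentile filter efflux was -0.03, since Abca1 alone was left. Without 1 line, medians ranged from 0.09 to 0.18 for all members, 0.00 to 0.07 for SREBP control, 0.15 to 0.22 for mevalonate, 0.11 to 0.18 for sterol steps, -0.12 to -0.08 for uptake, and 0.25 to 0.48 for efflux.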
